A study of Drosophila melanogaster with 2 samples.

Results

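The 10 core genes of the Drosophila Hippo pathway, ft, ds, ex, Mer, kibra, hpo, sav, wts, mats and yki, were examined for peaks of pan. They were taken by name, 10 of 13968 protein-coding genes in the Ensembl annotation, and each was given its gene body plus 2 kb on either side, called its territory below. A peak was assigned to a gene when its summit, the position of highest signal, fell in the territory. The material was whole embryos aged 0 to 24 h from transgenic flies that express pan fused to eGFP, chromatin was precipitated with an antibody against GFP, and 2 biological replicates came from separate biosamples of the same donor strain. All samples formed 1 group with no second condition, so every value describes where peaks lay and how strong they were, and no value compares treatments. Whole embryos mix all tissues and stages of that window, and a peak does not say in which cells it arose. A control is named in the file descriptions; it was not used here, and whether each peak depends on pan was not tested.

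The Hippo pathway limits the growth of fly organs. At the cell surface the giant cadherins Fat (ft) and Dachsous (ds) bind each other between neighbouring cells, and at the apical cortex Expanded (ex), Merlin (Mer) and Kibra (kibra) feed into a kinase cascade in which Hippo (hpo), with its scaffold Salvador (sav), activates Warts (wts), with its cofactor Mats (mats). Warts phosphorylates Yorkie (yki) and so keeps this co-activator out of the nucleus, where it would otherwise join the TEAD protein Scalloped (sd) on growth and survival genes. pan, the fly TCF, is the DNA-binding effector of Wingless signalling. Its HMG box reads a TCF core, and a separate zinc-coordinating domain reads a GC-rich helper site.

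The sequences below show the DNA under the summits that the results turn on. The first 4 are the strongest summits within 1 kb of the gene's own transcription start site (TSS), for members whose sequence is shown. The next 2 are the wts summits with a TEAD or a TCF match, and the last is the kibra start-site peak that no passing list held. These last 3 were chosen after their content was seen. Each is from the RefSeq genome of the dm6 assembly, plus strand, 50 bases on either side of the summit, shortened where an annotated UTR began. Capitals mark motif matches on either strand, and none of the printed matches overlap. The TCF core was searched as the word CTTTGAA, the word CTTTGAT, the word CTTTGTA or the word CTTTGTT. The helper site was either the word GCCGCCA or the word GCCGCCG. The TEAD site was CATTCC, the DREF site was TATCGATA and the GAGA site was GAGAG.
ds, chr2L:715477-715577: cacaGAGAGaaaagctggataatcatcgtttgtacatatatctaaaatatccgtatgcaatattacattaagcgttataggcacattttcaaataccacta
ex, chr2L:431022-431122: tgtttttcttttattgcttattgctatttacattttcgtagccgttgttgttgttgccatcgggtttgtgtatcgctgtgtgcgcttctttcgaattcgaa
Mer, chrX:19693349-19693435: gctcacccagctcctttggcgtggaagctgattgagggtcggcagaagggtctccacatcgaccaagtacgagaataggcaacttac
mats, chr3R:22421771-22421871: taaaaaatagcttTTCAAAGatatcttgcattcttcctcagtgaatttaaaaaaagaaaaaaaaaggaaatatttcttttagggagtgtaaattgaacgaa
wts, past the 3′ end, chr3R:30789549-30789624: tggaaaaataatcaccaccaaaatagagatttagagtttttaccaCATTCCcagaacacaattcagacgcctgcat
wts, intron, chr3R:30797402-30797502: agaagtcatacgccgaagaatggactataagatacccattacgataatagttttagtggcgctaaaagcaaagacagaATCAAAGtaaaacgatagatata
kibra, start site, chr3R:14724304-14724404: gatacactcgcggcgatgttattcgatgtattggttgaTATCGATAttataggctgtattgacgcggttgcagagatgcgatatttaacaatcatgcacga
The mats window carries CTTTGAA and the wts intron window CTTTGAT, both read on the minus strand. The kibra window carries the palindromic DREF word within 8 bp of its summit, and the windows at ex and Mer carry none of the 5 motifs.

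Of the 10 genes, 9 held at least 1 summit of the conservative list, and sav held none. That list holds pooled peaks that passed a cut the authors set on the irreproducible discovery rate (IDR), an estimate of the share of peaks whose ranks do not recur between sets. Among all protein-coding genes the share with a summit was 39.7%. The 9 genes held 25 summits, of which kibra, wts and ex held 16, while ft, ds, hpo and mats held 1 each. A summit within 1 kb of their own TSS was found at 6 genes (ds, ex, Mer, hpo, mats and yki), 8 summits in all, where 25.6% of all genes had one. At kibra, wts and ft all conservative summits lay farther from the start.

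Territory length differed between the members and must be read beside these counts. The median territory of the 10 genes was 14.4 kb, against 6.16 kb over all genes. Among genes with a territory under 10 kb, 33.5% had a summit, and of the members of that length Mer, hpo, mats and yki had one and sav did not. Between 20 and 50 kb the share was 67.8%, and ft, ex, kibra and wts all had one. Over 50 kb it was 72%, and ds, the longest of the 10 with 79 kb, had one. With the gene body alone and no flank, 5 of the 10 genes had a conservative summit, against 15.2% of all genes, and 2 had one within 1 kb of their own TSS, against 9.56%. Within 250 bp of the TSS, in the full territory, 3 had one, against 17.2%. The same 9 genes kept a summit in each of the other lists. The longer pooled list gave them 24 summits (42.5% of all genes had one there), replicate 1 alone gave 18 (32.4%) and replicate 2 alone gave 24 (36.5%).

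**Figure D1:**
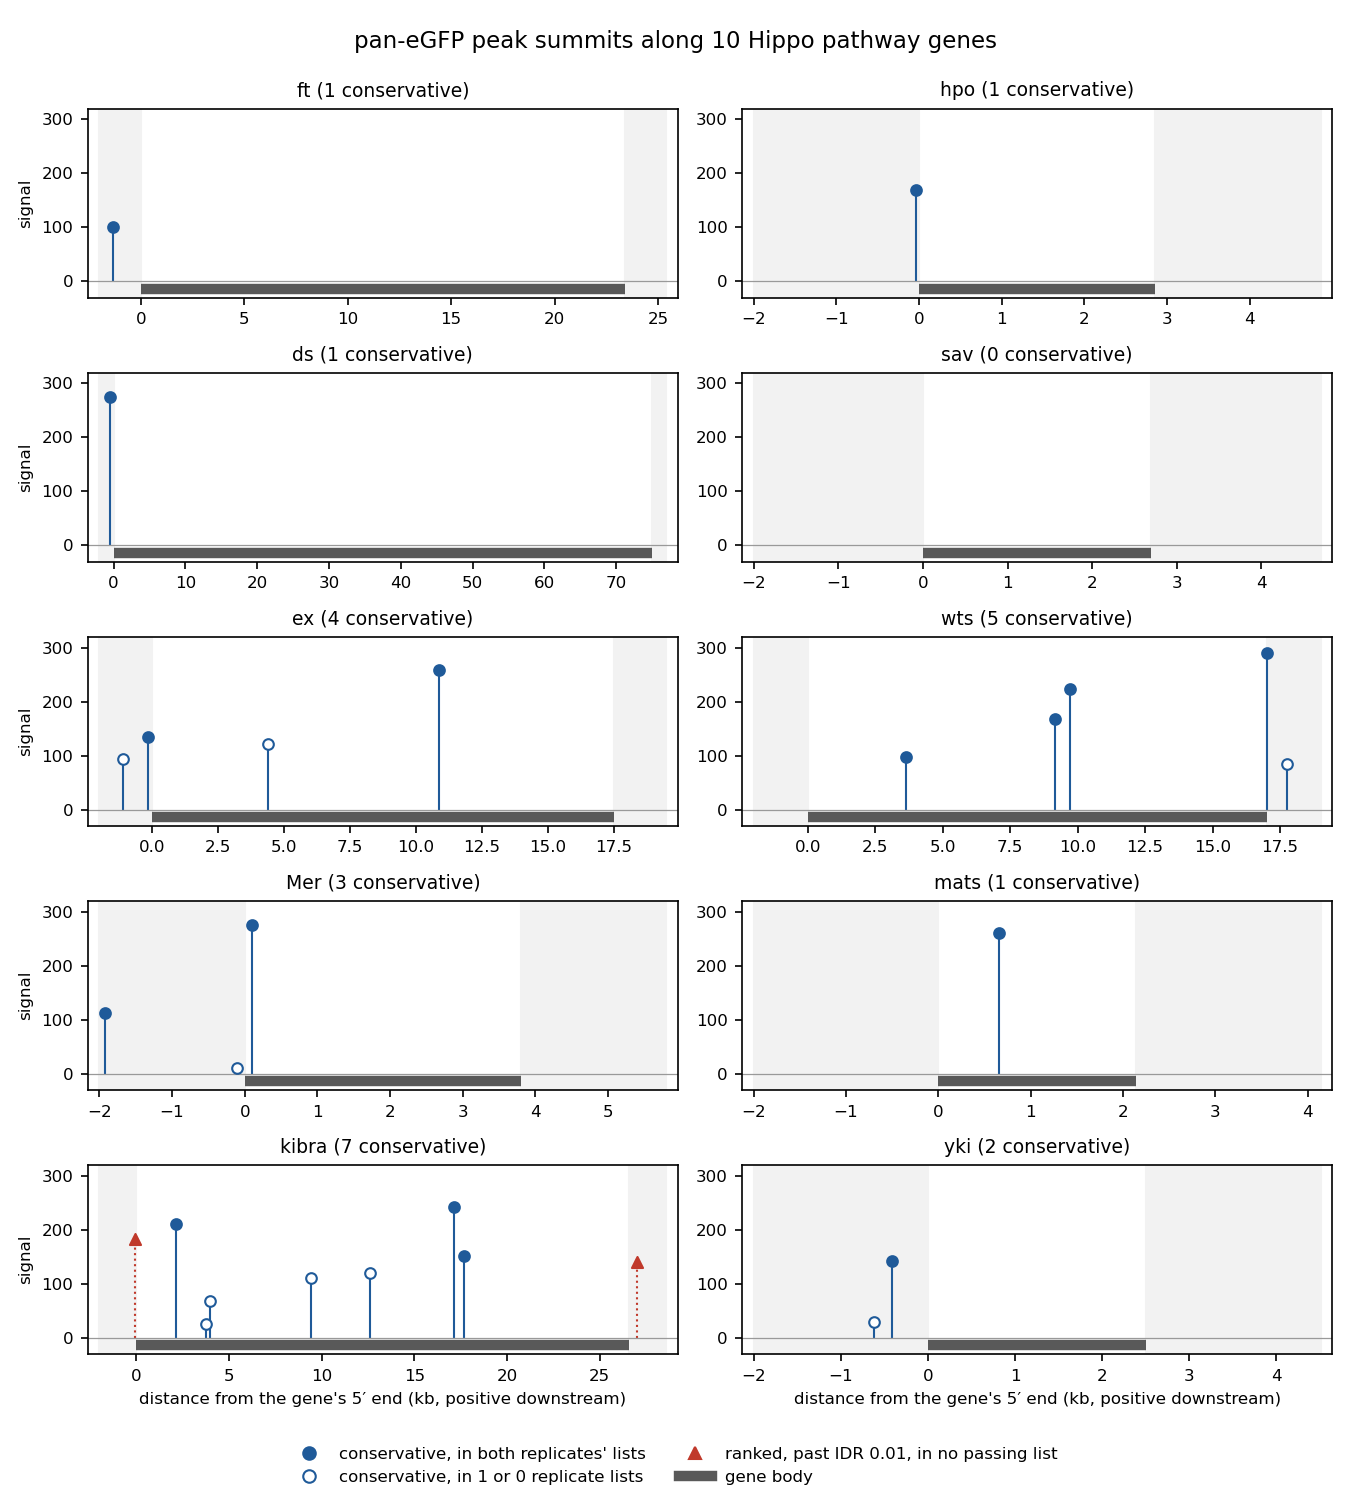
Each panel shows 1 gene from its 5′ end (0 on the horizontal axis, in kb, positive downstream), with the gene body as a bar and the 2 kb flanks shaded. Stems give the authors' signal at conservative summits, filled where the peak was in both replicates' lists and open where it was in 1 or 0. The summits of ds, hpo and yki sit at or just upstream of the start, and that of mats lies inside the gene. Those of kibra lie along the gene and those of wts along the gene and past its end. The 2 triangles at kibra are ranked peaks in no passing list, at 183.8 and 141.0.

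The cadherin genes, among the longer of the 10, had 1 conservative peak each. At ft (FBgn0001075, 2L 4198404 to 4221796, minus strand), the receptor of the pair, the conservative peak lay 1337 bp upstream of the start with a pooled signal of 100.4, and it had 50.9 in replicate 1 and 53.2 in replicate 2. The scale of the signal is not given in the sources used here, so pooled values are comparable with pooled values and each replicate's values with those of its own list. Replicate 2 alone also listed a peak with a signal of 51.6, 7 bp from the start of Naprt, the gene past the 3′ end of ft. A further ft peak near that end, with a pooled signal of 74.7, did not pass. Its global IDR was 0.0105 in the pooled ranked list that holds the conservative peaks, each of which reached 0.01, and 0.0696 in the other pooled ranked list. It was 0.213 in replicate 1 and 0.603 in replicate 2. For ft 43.3% of genes in its length class had more conservative summits.

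At ds (FBgn0284247, 2L 640013 to 714983, minus strand), the ligand of ft, the conservative peak lay 544 bp upstream of the start. Its pooled signal was 274.7, rank 929 of 6366, and it had 151.6 in replicate 1 and 128.7 in replicate 2. ds is 75 kb long, and the remainder of its territory held no conservative summit, and 56.3% of genes with territories over 50 kb had more summits than ds. The ranked list, which holds weak peaks too, placed 57 summits in the ds territory, and the other 56 passed no threshold.

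Of the upstream regulators at the apical cortex, kibra had the most of the 10 genes, with 7, while wts with 5 had more than ex or Mer. ex (FBgn0004583, 2L 431227 to 448701, plus strand) encodes a FERM-domain protein and is itself a known yki target. It held 4 conservative summits. The strongest, 10886 bp into the gene in an intron, had a pooled signal of 259.1, with 128.8 in replicate 1 and 138.7 in replicate 2. The start-site peak of ex, 155 bp upstream, was weaker, at 134.5 pooled, with 61.6 in replicate 1 and 73.8 in replicate 2. The other two were each in the passing list of a single replicate. The intronic peak 4385 bp into the gene, at 121.2 pooled, passed in replicate 1 with 83.4 and was only ranked in replicate 2 with 36.6. The peak 1096 bp upstream, at 93.2 pooled, passed in replicate 2 with 48.5 and was only ranked in replicate 1 with 43.5.

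Mer (FBgn0086384, X 19689697 to 19693500, minus strand) encodes the other FERM protein, the fly counterpart of a human tumour suppressor. Its territory is 7.80 kb, and it held 3 conservative summits, where 2.18% of genes with a territory under 10 kb held as many or more. The strongest lay just inside the gene, in an intron, at 274.7 pooled, with 126.4 in replicate 1 and 141.6 in replicate 2. A peak 1920 bp upstream, at 111.7 pooled, 52.1 in replicate 1 and 59.9 in replicate 2, was 170 bp from the start of its neighbour CG14229 and cannot be given to Mer rather than to that gene. The last entry, at 9.8, overlapped the strongest peak and shared its −log10 IDR of 5, and neither replicate listed it apart. Without it Mer held 2, and 9.23% of genes of that length held as many or more, with overlapping entries of other genes kept.

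kibra (FBgn0262127, 3R 14697689 to 14724261, minus strand) encodes a WW-domain scaffold that acts with Mer and ex. It held 7 conservative summits, all in introns, and 3.82% of genes with territories of 20 to 50 kb had as many or more. The strongest, 17165 bp into the gene, had 241.7 pooled, 131.2 in replicate 1 and 113.6 in replicate 2. The next, 2112 bp into the gene, had 211.7 pooled, 110.1 in replicate 1 and 98.5 in replicate 2. A peak 17678 bp in had 151.6 pooled, 65.1 in replicate 1 and 103.1 in replicate 2. These 3 passed in both replicates, and the other 4 passed in at most 1 of them. At 12601 bp the pooled signal was 119.5, at 9435 bp 110.7, at 3979 bp 68.3 and at 3769 bp 25.6. The last 2 overlapped each other with the same IDR. With these counted as 1, 6.69% of genes of that length had as many or more, with overlapping entries of other genes kept. The longer list and replicate 2 added a peak of 70.9 pooled and 44.5 in replicate 2 in the same stretch of introns, 6844 bp from the start in the longer list.

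At the start of kibra the passing lists were empty but the pooled ranked list was not. It held a peak 93 bp upstream of the TSS with a signal of 183.8, which 27% of conservative peaks exceeded. Its −log10 global IDR was 3.94, past the level of 2 that every conservative peak reached, and it was 2.97 in replicate 1, with a signal of 68.0, and 4.41 in replicate 2, with 105.0. It was in none of the 4 passing lists, and 151 pooled ranked peaks across the genome were left out in the same way. A second lay 420 bp past the 3′ end of kibra in the 5′ UTR of its neighbour Meltrin, with a pooled signal of 141.0, 38.7 in replicate 1 and 84.7 in replicate 2. Why they were left out is not given in the sources used here. With the 151 peaks restored, an alternative chosen after seeing the data, the 10 genes held 27 summits and kibra brought the genes with one within 1 kb of their own TSS to 7, against 26.2% of all genes.

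The kinase cassette was divided between wts, with many peaks, and its small partners, with 1 or none. hpo (FBgn0261456, 2R 19493996 to 19496856, minus strand), the upstream kinase, had its conservative peak 32 bp upstream of its start, the nearest of all 25 to the member's own start. The pooled signal was 169.0, with 64.0 in replicate 1 and 108.5 in replicate 2. mats (FBgn0038965, 3R 22421161 to 22423302, plus strand), the cofactor of wts, had a stronger peak, 496 bp downstream of the nearer of its 2 annotated starts, in an intron and 753 bp from the start of Nop56. Its pooled signal was 260.5, with 93.8 in replicate 1 and 163.0 in replicate 2, and it is the summit with the CTTTGAA printed above.

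sav (FBgn0053193, 3R 23058609 to 23061304, minus strand), the scaffold of hpo, was the exception in every passing list. Its territory of 6.70 kb held 8 summits of the pooled ranked list, none of which passed. The strongest, 374 bp into the gene, had a signal of 46.0 and ranked 16936 of 124455, with a global IDR of 0.514. The strongest sav peak in replicate 1 had a signal of 29.1, 388 bp into the gene, while that in replicate 2 had 35.7 and lay 3816 bp from the start. The leading position therefore differed between the replicates. With the flank widened to 5 kb, sav had a conservative summit too, and all 10 genes had one, against 54% of all protein-coding genes at that flank.

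wts (FBgn0011739, 3R 30789625 to 30806619, minus strand), the kinase that phosphorylates yki, held 5 conservative summits, and 10.5% of genes in its length class held as many or more. The strongest of all 25 lay just past the 3′ end of wts, at 290.5 pooled, 110.6 in replicate 1 and 178.5 in replicate 2, and it is the summit with CATTCC printed above. It is intergenic. The nearest annotated TSS of any gene was 2059 bp away, and that of the nearest other protein-coding gene, zfh1, was 6341 bp away. The body of zfh1 comes nearer than its TSS, since the wts peak of 84.4 lies in its 3′ UTR. Within wts, a pair of intronic peaks lay 9705 and 9167 bp from the start. The first had 223.0 pooled, 115.5 in replicate 1 and 108.2 in replicate 2, and the second, with the CTTTGAT, had 167.3 pooled, 90.0 in replicate 1 and 87.3 in replicate 2.

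The 2 weaker wts peaks had 98.0 and 84.4 pooled. The first lay 3637 bp into the gene and passed in both replicates, with 49.6 in replicate 1 and 57.0 in replicate 2. The second lay in the 3′ UTR of zfh1 and passed in replicate 2 only, with 43.5 there and 45.1 in the ranked list of replicate 1. wts had no conservative summit within 1 kb of its own start. The longer list added a peak of 95.5 at 1871 bp upstream, which was 127 bp from the start of cindr, and replicate 2 alone listed one of 54.2 at 4273 bp into the gene.

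yki (FBgn0034970, 2R 24065975 to 24068485, minus strand), the output of the pathway, had 2 conservative summits, but they overlapped, shared 1 IDR value and fell under the same peak of replicate 2. The stronger, 407 bp upstream of yki, had 141.7 pooled, 100 in replicate 1 and 79.4 in replicate 2. It lay 135 bp from the start of Gpat4 and in the 5′ UTR of that gene. The other, 622 bp upstream of yki and 57 bp from the Gpat4 start, had 28.9 pooled. The yki peaks are therefore nearer another gene's promoter than that of yki, and which of the 2 genes they serve was not tested.

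Over the 25 summits, 14 lay in introns of the member, 11 lay outside its body and none in its coding exons. Another protein-coding gene's TSS was nearer than the member's own at 8 of the 25. No TSS of any gene was within 1 kb of 16 of them. A TSS stood that near to 36% of the member summits and to 54% of all conservative summits. The median pooled signal was 134.5 for the member peaks and 120 for all 6359, and the median GC content around the summits was 34.7% for the members and 33.7% for all.

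**Figure D2:**
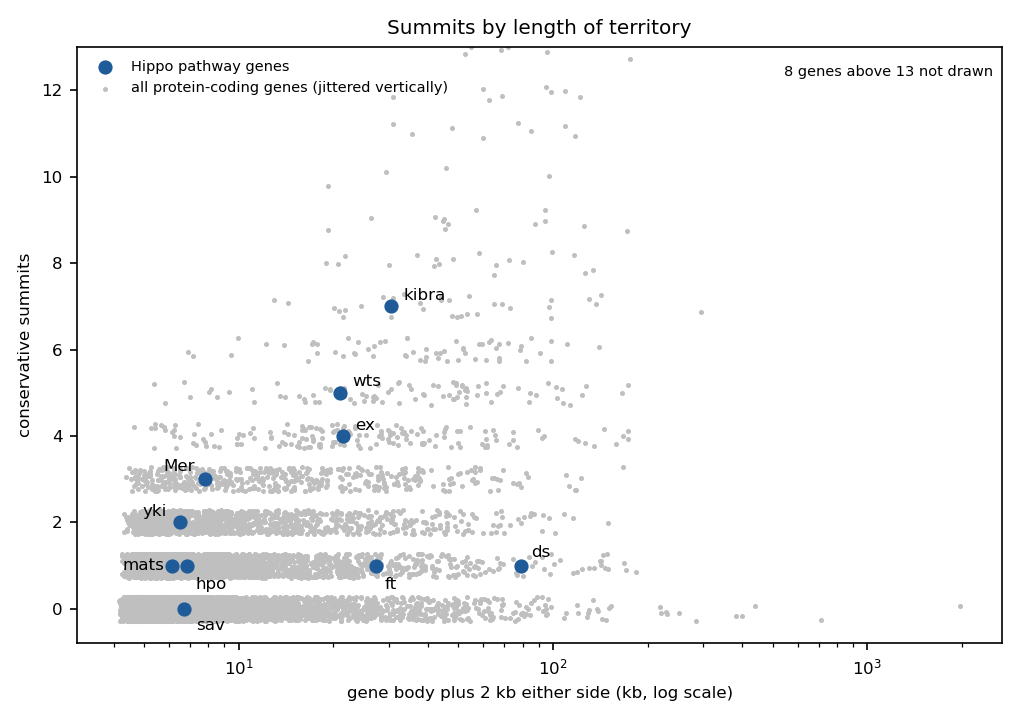
The number of conservative summits (vertical axis) is plotted against territory length in kb (horizontal axis, log scale) for the 10 Hippo genes and for all protein-coding genes, whose points are spread vertically for legibility. Counts climb with length among all genes, kibra at 7, wts at 5 and ex at 4 lie in the upper part of their length range, and ds at 1 lies below the median of 2 for territories over 50 kb.

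Most member peaks were found in each replicate alone. Of the 25, 16 (64%) were in the passing lists of both replicates, against 53% of all conservative peaks. Another 4 were in replicate 2 only, 2 in replicate 1 only and 3 in neither. Because the signal scale may differ between the replicates, they were set side by side by rank in each replicate's own ranked list, which held 103956 peaks in replicate 1 and 109135 in replicate 2. The ds peak ranked 882 in replicate 1 and 1051 in replicate 2, and the start-site peak of Mer ranked 1179 in replicate 1 and 889 in replicate 2. The mats peak ranked 1798 in replicate 1 and 701 in replicate 2, and that of hpo ranked 3064 in replicate 1 and 1385 in replicate 2. The 2 peaks that passed in replicate 1 only were selected for a lower place in replicate 2, so their ranks do not measure agreement. The kibra peak 9435 bp into the gene ranked 2515 in replicate 1 and 11181 in replicate 2. The ex peak 4385 bp into the gene ranked 2122 in replicate 1 and 8158 in replicate 2. The 4 that passed in replicate 2 only were selected by not passing in replicate 1, so their ranks do not measure agreement either. Of these 4, the ex peak 1096 bp upstream ranked 5020 in replicate 1 and 4941 in replicate 2. In the same order, the kibra peak 12601 bp into the gene ranked 4262 and 3536, and the wts peak in the 3′ UTR of zfh1 ranked 4782 and 5943. The weaker yki entry had no rank in replicate 1.

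**Figure D3:**
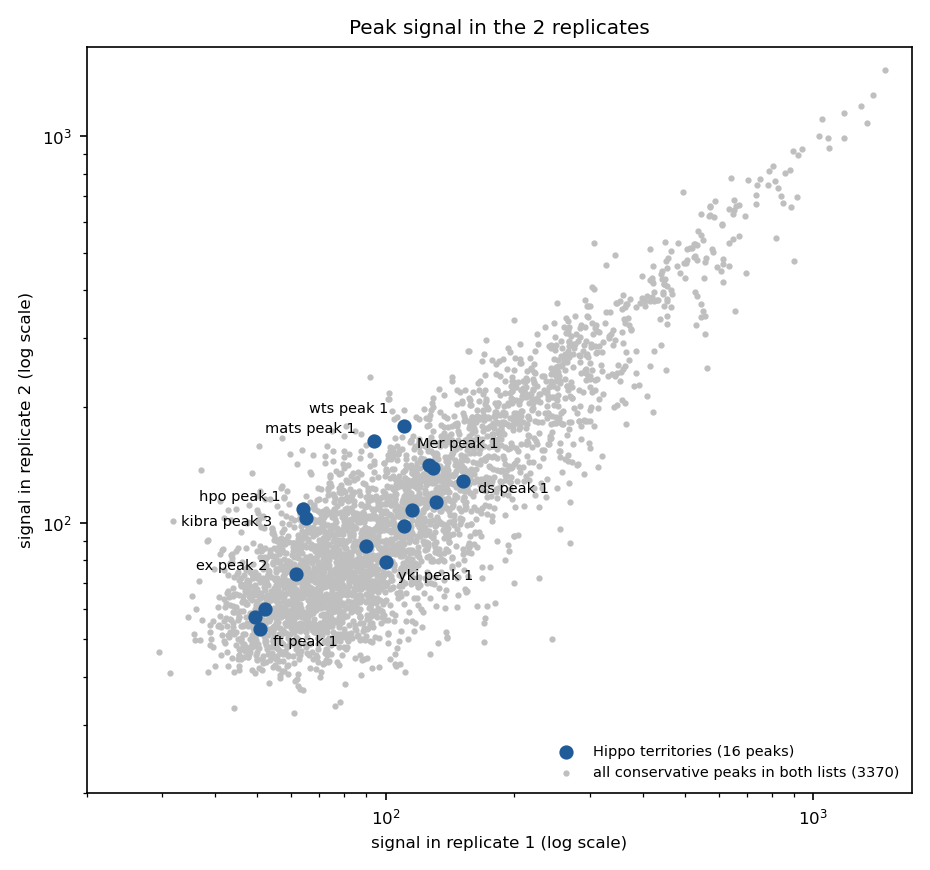
Signal in replicate 1 (horizontal axis, log scale, authors' units) is plotted against signal in replicate 2 (vertical axis, log scale) for the 16 member peaks and the 3370 conservative peaks found in both replicates' passing lists. Each axis has the scale of its own list, so position along an axis can be read and equality between axes cannot. Peaks of a gene are numbered by pooled signal, and the member points lie inside the cloud of all peaks.

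Motif matches were few at the member summits. A TCF core lay within 50 bp of 2 of 25 summits (8%), those of mats and wts printed above, against 9.47% of all conservative summits. In the windows 500 bp to either side of the member summits the share was 6%, and in those of all summits it was 7.64%. Within 100 bp the share at the members was 24%, against 16.8% of all. The CATTCC of TEAD proteins, the kind of factor that partners yki, lay within 50 bp of 1 member summit (4%), against 3.21% of all. It lay in 9 of the 50 flanking windows of the members (18%), against 4.72% of all flanks. Some of these 50 windows overlap each other or cover the summit of another member peak, so they are not 50 separate stretches.

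The helper site was at 1 member summit (4%), the weak kibra entry of 25.6, against 2.31% of all. The GAGA word was at 4 member summits (16%), 1 each at ds, ex, Mer and wts, against 10.9% of all. The DREF word was at none of the 25, against 1.54% of all, and in 0 of their 50 flanking windows, against 0.338% of all flanks. It did stand under the ranked kibra peak at the start site. The rest of the territories was not searched for motifs. A match says only that these letters stand in the window.

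Beyond the 10 genes, 40 further genes of the pathway were read the same way. Of these, 27 (67.5%) had a conservative summit, against 39.7% of all protein-coding genes, and 20 (50%) had one within 1 kb of their own TSS, against 25.6%. Their territories were also longer than most. Of the 40, 10 had a territory under 10 kb and 3 of those had a summit (30%), against 33.5% of all genes of that length. Between 10 and 20 kb it was 7 of 12 (58.3%), against 57.8%. Between 20 and 50 kb it was 11 of 12 (91.7%), against 67.8%, and over 50 kb 6 of 6, against 72%. No share by length is given for the start-site count. The miRNA gene mir-ban is among the 40 and among the 20, while the shares of all genes are of protein-coding genes. The Fat and Dachsous branch had a summit at 4 of 7 genes, the apical and junctional inputs at 5 of 8, the modulators of the kinases at 10 of 14, the nuclear partners of yki at 2 of 5 and the reported yki targets at 6 of 6.

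By signal at the own TSS, Diap1, the inhibitor of apoptosis that yki induces, came first with 398.0 pooled, 180.7 in replicate 1 and 182.9 in replicate 2, 659 bp into the gene. app, the palmitoyltransferase of the Fat branch, followed with 378.6 pooled, 187.9 in replicate 1 and 180.5 in replicate 2, 169 bp upstream. Both exceeded every peak of the 10 core genes, as did the start-site peak of ed given below. CycE, the G1 cyclin and a further yki target, had 201.9 pooled, 119.7 in replicate 1 and 81.7 in replicate 2, 411 bp upstream.

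ed, an immunoglobulin-type adhesion protein, had 293.5 pooled, and dlg1, a scaffold of the septate junction, 262.0. Among kinases, msn had 255.4, although its peak was 32 bp from the start of RpL8, dco, a casein kinase that phosphorylates Fat, had 246.7, Hipk 211.0 and Sik3 161.7. The phosphatase gene mop had 154.5. All 10 genes with the strongest start-site peaks had them in both replicates' passing lists. The nuclear partners with a start-site summit, sd and hth, were outside those 10 and were chosen after their values were seen. sd, the TEAD factor, had 81.6 pooled at 13 bp from its start, 38.9 in replicate 1 and 45.6 in replicate 2, and hth, a homeodomain factor, had 77.8 pooled, 31.7 in replicate 1 and 50.1 in replicate 2. Both passed in replicate 2 only.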

How the data were processed

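Chromatin immunoprecipitation and sequencing of pan fused to eGFP was performed on whole embryos of 0 to 24 h in 2 biological replicates of 1 group, on chromatin sonicated to 200 to 800 bp, per the labels. The deposited files were peak lists on dm6, per the file headers: a ranked list and a list passing an irreproducible discovery rate (IDR) threshold for each replicate, ranked lists for the pooled replicates, and a conservative and a longer pooled list. In them the authors supplied for each peak a score (not used in any result), a signal value, a −log10 q, a −log10 global IDR in the ranked lists, and a summit offset, an unscaled distance from the peak start. Another input of the thresholded lists is listed without a description. The aligner, the peak caller and the signal scale are not given in the sources used here, and read depth is unknown, so no interval is given.

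Of 6366 conservative peaks, 6359 on the main arms were used and 7 on unplaced scaffolds were left out. Genes came from Ensembl release 115 and sequence from the RefSeq genome of the same assembly, in which every peak on each main arm lay within the chromosome's length. d was matched as dachs. Of the pooled ranked lists, the one whose peaks include all 6359 conservative peaks was read for ranked peaks. Peaks were assigned to replicates by an overlap of 50% of the shorter peak. Motifs were sought on both strands in 101 bp around the summit and in 2 windows centred 500 bp away. No test was made, since 1 group has no second condition and genes are not replicates. The counting functions were tested on simulated data. All 10 members are named, and of the 40 wider genes the 10 with the strongest peak within 1 kb of their own TSS. Members, lists and motifs were chosen with earlier results of these data known. Alternatives covered other lists, each replicate left out, other flanks and windows, merged peaks, motif forms and overlap rules; restoring 151 ranked peaks was added after seeing the data. Python 3.11.15, pandas 2.3.3, numpy 2.4.6, scipy 1.17.1 and matplotlib 3.10.9 were used.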

Additional observations from a re-analysis of the deposited data

Results flagged for a closer look

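A pair of kibra peaks appeared outside the lists that the counts use. They stood in the pooled ranked list, past the IDR of 0.01 that every conservative peak reached, and in none of the passing lists. The first, 93 bp upstream of the kibra TSS, had a signal of 183.8, with 68.0 in replicate 1 and 105.0 in replicate 2. The second, 420 bp past the 3′ end of kibra, had a signal of 141.0, with 38.7 in replicate 1 and 84.7 in replicate 2. Its −log10 global IDR was 2.90 pooled, 1.16 in replicate 1 and 3.91 in replicate 2. Control signal at these positions was not used here, and why the peaks were left out was not tested.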

How the results depend on the processing

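Of 43 alternative values, 36, all of them counts, stayed within 1.5 times the reported count. Some of these 36 could not move, so their number is not a measure of robustness. The planned restoration added 0 peaks and repeated the reported counts. A flank of 5 kb cannot change which genes have a summit within 1 kb of their own TSS. The count of genes with a summit cannot exceed 10. The values other than these 36 follow. With the gene body alone and no flank, 5 genes held 14 summits (15.2% of all genes held one) and 2 genes had one within 1 kb of their own TSS (9.56%), since 11 of the 25 summits lay outside the member's body. Among the 3180 stronger conservative peaks the 10 territories held 14 summits. With the start-site window narrowed to 250 bp, 3 genes had a summit in it (17.2% of all genes). Widening the motif window to 100 bp gave a TCF core at 6 of 25 summits, and with genes of any biotype as background the median member territory stood at the 89.3 percentile of length, against 86.4 among protein-coding genes. Leaving out replicate 1 gave 9 genes (36.5% of all genes had a summit there) and 24 summits, 3 of them with a TCF core. Leaving out replicate 2 gave 9 genes (32.4% of all genes) and 18 summits, 3 of them with a TCF core. In either case 6 genes had a summit at their own TSS. No share over all genes or peaks of these 2 lists is set beside the start-site and TCF counts, so they cannot be read as high or low. Merging overlapping peaks gave 22 summits. The planned restoration added 0 peaks, and the added one of 151 peaks gave 27 summits. The planned one did not take in 6 entries of the longer or replicate lists in these territories that overlapped no conservative peak.

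The 25 summits belong to 1 pooled experiment with 2 replicates, and with no read counts neither weak peaks nor the absence of a passing peak at sav can be read against depth. Assignment by distance cannot tell a member from its neighbour.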
